A study of Mus musculus with 36 samples.

Results

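Expression of 7 genes of the Ms4a family, Ms4a3, Ms4a4a, Ms4a4c, Ms4a6b, Ms4a6c, Ms4a6d and Ms4a7, was followed by RNA-seq through osteoclast differentiation of mouse bone marrow cells. They are 7 of 24950 genes in the expression table and 7 of the 17 rows whose symbol begins with Ms4a. The members were chosen by their measured expression in these same libraries, so their levels and differences are given as a description and carry no p-value. The study examined what Irf8, a transcription factor of the monocyte lineage known to restrain osteoclast formation, does to this differentiation. Bone marrow-derived macrophages (BMMs) of C57BL/6 mice in M-CSF were taken as day 0. RANKL, the cytokine that induces osteoclasts, was then added at 40 ng/ml beside M-CSF at 20 ng/ml, and cells were taken as pre-osteoclasts at day 3 and as mature osteoclasts at day 6. The mice carried 1 of 4 Irf8 genotypes named gWT, gKO, cWT and cKO in the labels, which spell out neither prefix and name no Cre line or promoter. Each of the 12 groups of genotype and day had 3 libraries, 36 in all, and the labels do not say whether the 3 came from separate animals or cultures. Any p-value below therefore measures the spread between these libraries, which may be technical.

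MS4A proteins are small membrane proteins that cross the membrane several times, and most of their genes lie side by side in a cluster on mouse chromosome 19. They resemble the tetraspanins in shape without sharing their sequence, and several associate with surface receptors such as Fc receptors or Dectin-1. Ms4a3 is known as a marker of granulocyte-monocyte progenitors, Ms4a4a and Ms4a7 as genes of macrophages. RefSeq (GRCm38.p6) lists 21 Ms4a genes in the cluster. Counted along the chromosome, Ms4a7, Ms4a4a and Ms4a4c are the genes in places 12 to 14, Ms4a6c and Ms4a6b hold places 16 and 17, Ms4a6d place 19 and Ms4a3 place 21.

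Promoters of 6 of the 7 members were matched in RefSeq, 7 promoters in all since Ms4a7 has 2 start sites. None was matched for Ms4a6d. Those of Ms4a6b and Ms4a6c are shown because these genes had the highest correlation of any pair of members over the 12 group means (below). Their promoters also share a run of 48 bases, printed in capitals. The Ms4a6b window is chr19:11518309-11518608 on the plus strand and that of Ms4a6c is chr19:11469118-11469417 on the plus strand, both 300 bases in GRCm38.p6, written 5′ to 3′.
Ms4a6b: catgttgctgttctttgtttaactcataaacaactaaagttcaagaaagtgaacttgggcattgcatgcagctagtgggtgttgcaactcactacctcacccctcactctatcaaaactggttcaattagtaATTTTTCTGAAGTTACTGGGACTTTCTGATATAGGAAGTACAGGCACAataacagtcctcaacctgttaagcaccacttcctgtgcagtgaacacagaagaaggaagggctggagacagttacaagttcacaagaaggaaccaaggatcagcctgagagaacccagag
Ms4a6c: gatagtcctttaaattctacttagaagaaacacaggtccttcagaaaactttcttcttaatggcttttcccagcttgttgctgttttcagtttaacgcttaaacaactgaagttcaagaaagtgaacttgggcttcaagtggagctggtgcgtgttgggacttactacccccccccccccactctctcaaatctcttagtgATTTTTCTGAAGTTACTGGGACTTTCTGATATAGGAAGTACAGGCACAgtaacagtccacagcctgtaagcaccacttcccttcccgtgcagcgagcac
The run begins 118 bases before the start site of Ms4a6b and 49 bases before that of Ms4a6c, and both windows were identical at 64% of positions after alignment. Every other pair of the 7 promoters shared a run of 7 to 12 bases, and Ms4a6d could not be compared.

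Ms4a3 and Ms4a4a are shown because their levels moved in opposite directions between the genotypes at day 0. The Ms4a3 window is chr19:11640802-11641101 on the minus strand and the Ms4a4a window is chr19:11375238-11375537 on the plus strand, and capitals mark matches to the motifs named next.
Ms4a3: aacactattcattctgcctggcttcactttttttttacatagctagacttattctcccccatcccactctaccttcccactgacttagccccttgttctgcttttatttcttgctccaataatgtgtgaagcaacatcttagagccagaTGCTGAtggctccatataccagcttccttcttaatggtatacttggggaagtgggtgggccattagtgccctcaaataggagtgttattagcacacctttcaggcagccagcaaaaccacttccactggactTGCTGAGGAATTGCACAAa
Ms4a4a: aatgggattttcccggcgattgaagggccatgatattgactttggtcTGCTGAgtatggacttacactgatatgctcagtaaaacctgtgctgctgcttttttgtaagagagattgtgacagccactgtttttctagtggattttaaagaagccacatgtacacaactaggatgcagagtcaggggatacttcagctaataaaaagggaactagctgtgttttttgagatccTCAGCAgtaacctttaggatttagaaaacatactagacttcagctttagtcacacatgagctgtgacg
Both strands were searched for the PU.1 core GAGGAA, the C/EBP motif (TTGC and AA spaced by any 2 bases), the AP-1 motif TGANTCA, the MAF recognition core TGCTGA, an interferon response element of a pair of GAAA spaced by any 2 bases, and an ETS-IRF composite of GGAA and GAAA with the same spacing. Just past its start site the Ms4a3 promoter held the MAF core, the PU.1 core overlapping it, and the C/EBP motif as TTGCACAA. It held the MAF core once more upstream. The Ms4a4a promoter held TGCTGA once on each strand. GAGGAA was also found in the Ms4a4c promoter and in 1 of the 2 Ms4a7 promoters, the other of which held TGATTCA. None of the promoters searched, which leave out Ms4a6d, matched the interferon response element or the ETS-IRF composite. Those of Ms4a6b and Ms4a6c matched none of the 6 motifs. Of 32851 RefSeq promoters of 300 bases, 28.3% held the PU.1 core, 10.8% the C/EBP motif, 7.81% the AP-1 motif, 19.5% the MAF core, 3.44% the interferon response element and 2.72% the composite. A match describes letters in the window and not binding.

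Some members resemble each other closely enough for reads to be shared. Over the coding sequences of GENCODE M21, Ms4a6b was 84.6% identical to Ms4a6c and 81% identical to Ms4a6d, and Ms4a4c was 91.7% identical to Ms4a4b and 85.9% identical to Ms4a4d. Ms4a4b and Ms4a4c shared 78 runs of 50 identical bases, Ms4a6b and Ms4a6d 40, Ms4a4c and Ms4a4d 8, and Ms4a6b and Ms4a6c 6. How reads that match several genes were counted is not given in the sources used here, so the levels of Ms4a4c, Ms4a6b, Ms4a6c and Ms4a6d are uncertain to that extent. Ms4a3, Ms4a4a and Ms4a7 shared no such run with any other member, with Ms4a4b or with Ms4a4d.

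The deposited values were RPKM (reads scaled to gene length and to the library's mapped reads), which are per length, so levels can be set beside each other between genes. The depth was 34510144 to 92548145 alignments per library (median 46799532), and libraries of a group correlated at r = 0.9961 to 0.9993 over all listed genes. Differences were taken as log2(RPKM + 1) with limma over 11863 genes that had at least 1 RPKM in at least 3 libraries, and all 7 members passed this filter. A gene was called at a Benjamini-Hochberg adjusted p under 0.05. Adding 1 to each value makes log2 differences of low genes smaller than their ratios of RPKM. The first letter of each library name was read here as 1 of the 3 data sets that the file header says were combined: all g libraries are of u, cWT at days 0 and 3 of s, cKO at days 0 and 3 of t, cKO at day 6 of s, and cWT at day 6 of both s and t. The sources do not say that the letters mark data sets. Genotype and data set cannot be told apart for cKO against cWT at days 0 and 3, nor day and data set for cKO at day 6 against day 3. No c library is of u, so the g set and the c set cannot be told apart from data set either. This holds for every order of the 12 groups and every g against c comparison below.

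Irf8 itself went against several knockout labels. At day 0 it had 61.1, 63.4 and 66.3 RPKM in gWT, 59.0, 56.9 and 56.3 in gKO, 60.5, 58.1 and 58.4 in cWT, and 205, 212 and 213 in the libraries labelled cKO. At day 3 it averaged 5.46 ± 0.493 RPKM (SD, n = 3) in gWT, 13.4 ± 1.16 in gKO, 6.42 ± 0.982 in cWT and 65.4 ± 3.03 in cKO. At day 6 it averaged 26.3 ± 1.88 in cWT and 11.2 ± 3.08 in cKO, the reverse order. The file header states that the annotation of the cKO and cWT libraries of day 6 was corrected. The labels do not say which part of the gene is deleted, and a value over the whole gene cannot show a deleted part, so genotypes below are those of the labels.

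Ms4a3 was the member with its highest levels in the knockout-labelled groups. Its protein, known in human cells as HTm4, is a marker of granulocyte-monocyte progenitors and binds the cell cycle phosphatase encoded by Cdkn3. At day 0 it had 4.64, 7.05 and 5.77 RPKM in gWT and 182, 211 and 182 in gKO. In the c groups it had 10.8, 12.3 and 11.98 RPKM in cWT and 134, 146 and 134 in cKO. Every knockout library was thus far above every wild-type library. The group means differed 32.9-fold in the g set, a log2 difference of 4.83 ± 0.15 (SE). They differed 11.8-fold in the c set, by 3.45 ± 0.15.

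The level of Ms4a3 was far lower at day 3 in every genotype, with knockout again above wild type in both sets. The highest group was then cKO, where at day 0 it had been gKO, an order across sets that cannot be told apart from data set. It had 1.10, 0.965 and 0.873 RPKM in gWT, 7.96, 7.85 and 7.18 in gKO, 2.53, 2.13 and 3.61 in cWT, and 15.03, 14.8 and 19.2 in cKO. Knockout and wild type did not overlap in either set, with log2 differences of 2.13 ± 0.15 and 2.22 ± 0.15. At day 6 Ms4a3 was under 2.1 RPKM in every library, at 0.160, 0.157 and 0.146 RPKM in gWT, 0.872, 0.714 and 0.235 in gKO, 1.01, 2.03 and 1.07 in cWT, and 0.0600, 0.343 and 0.149 in cKO. Both sets then differed in direction, gKO being above gWT without overlap and cKO below cWT without overlap. From day 0 to day 6 the group mean went from 192 to 0.607 RPKM in gKO and from 138 to 0.184 in cKO. Among all 12 groups the level ran in the order gKO and cKO at day 0, cKO at day 3, cWT at day 0, gKO at day 3 and gWT at day 0, none of these neighbours overlapping. Only groups with means under 1.4 RPKM overlapped a neighbour in that order (gWT at day 3 with cWT at day 6, and cKO at day 6 with gKO and with gWT at day 6).

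Markers of progenitors and granule proteins moved with Ms4a3. The list of 8 such genes (Mpo, Elane, Prtn3, Ctsg, Ltf, Camp, Ngp and Cebpe) ranged in sum from 657 to 843 RPKM across the gWT libraries of day 0 and from 7049 to 8127 across those of gKO. It summed to 1530 to 1585 in cWT and 7875 to 8348 in cKO. All 8 were called higher in gKO and in cKO at days 0 and 3, and all 8 were called lower in cKO than in cWT at day 6. The list summed to 110.4 to 131.0 RPKM in gKO and 21.9 to 24.4 in gWT at day 6, and to 38.4 to 49.7 in cKO and 165 to 212 in cWT. None of the 8 was at 0 in any group. In bulk libraries fewer cells of a type and less RNA per cell cannot be told apart, and the part of such cells in the Ms4a3 levels was not tested. The 3 genes whose group means were most like those of Ms4a3, among 9033 candidates, were Ctsg (Pearson r = 0.992 over the 12 groups), Prtn3 (0.991) and Ffar2 (0.991). Ctsg and Prtn3 encode granule proteases and stand in the marker list, and Ffar2 encodes a receptor for short-chain fatty acids. The plot of Ms4a3 against the marker sum shows every library.

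**Figure D1:**
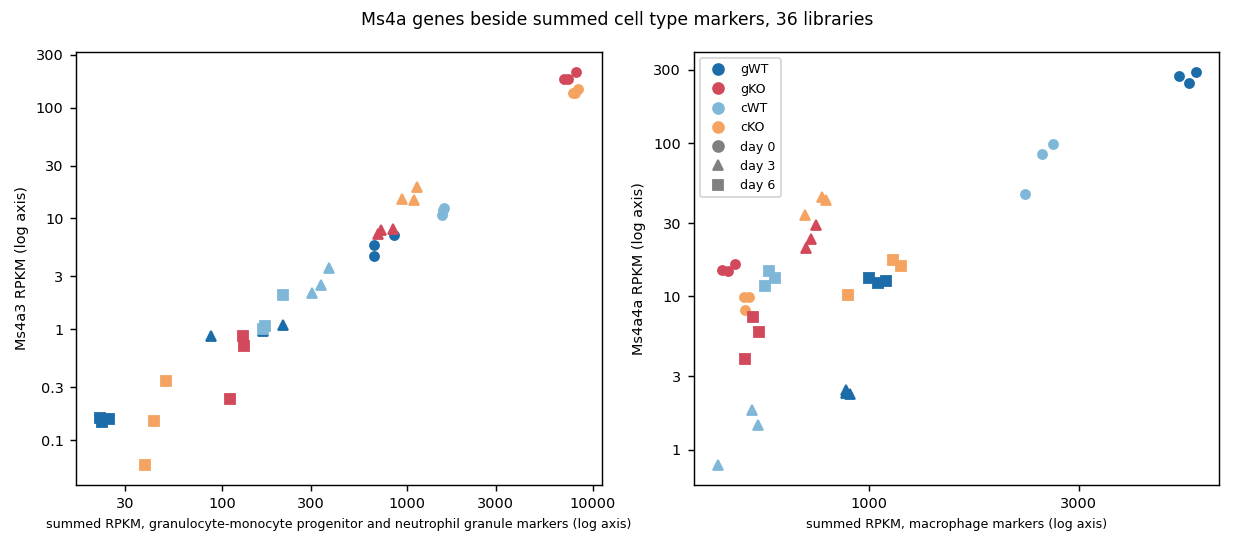
Left, RPKM of Ms4a3 in each of 36 libraries against the summed RPKM of 8 granulocyte-monocyte progenitor and neutrophil granule markers; right, RPKM of Ms4a4a against the summed RPKM of 10 macrophage markers; all axes are log scales, colour gives the labelled genotype and shape the day. Ms4a3 runs from 0.0600 RPKM in a cKO library at day 6 to 211 RPKM in a gKO library at day 0. Its marker sum runs from 21.9 RPKM in a gWT library at day 6 to 8348 RPKM in a cKO library at day 0. Ms4a4a at day 3 is higher in gKO and cKO than in gWT and cWT. The macrophage sum at that day is lower in gKO than in gWT and higher in cKO than in cWT.

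Ms4a4a had the opposite order at day 0 and reversed it at day 3. MS4A4A is a surface protein of macrophages that associates with the fungal receptor Dectin-1. At day 0 Ms4a4a had 275, 292 and 247 RPKM in gWT and 14.8, 14.7 and 16.4 in gKO. The c groups had 84.6, 98.8 and 46.2 RPKM in cWT and 9.89, 9.84 and 8.16 in cKO. The wild-type libraries were all above the knockout libraries, 17.8-fold for gWT over gKO and 8.23-fold for cWT over cKO by group means, and replicate 3 was the low library of cWT.

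At day 3 the libraries labelled knockout were the high ones. Ms4a4a had 2.34, 2.43 and 2.31 RPKM in gWT and 23.8, 29.0 and 20.5 in gKO, a log2 difference of 2.91 ± 0.21. It had 0.794, 1.45 and 1.81 RPKM in cWT and 42.5, 44.6 and 34.0 in cKO, a log2 difference of 4.15 ± 0.21. The groups did not overlap in either set. By day 6 the levels were closer, at 13.2, 12.6 and 12.1 RPKM in gWT, 3.93, 7.33 and 5.82 in gKO, 11.7, 14.7 and 13.2 in cWT, and 17.1, 10.2 and 15.8 in cKO. All gKO libraries were then below all gWT libraries, and cKO overlapped cWT. Wild type and knockout thus took different courses: gWT went from 272 RPKM through 2.36 to 12.6 (means of days 0, 3 and 6), and gKO from 15.3 through 24.4 to 5.69. cWT went from 76.5 through 1.35 to 13.2, and cKO from 9.30 through 40.4 to 14.4. In the order of the 12 groups, gKO at day 0 and the day 6 groups of cKO, cWT and gWT lay next to each other with overlap (means of 15.3 to 12.6 RPKM), and no other neighbours overlapped.

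Macrophage markers moved with Ms4a4a at day 0, less evenly at day 3, and again in the g set at day 6. The list of 10 (Adgre1, Csf1r, Mrc1, Mertk, C1qa, C1qb, C1qc, Fcgr1, Cd14 and Fcrls) ranged in sum from 5072 to 5543 RPKM across the gWT libraries of day 0 and from 462 to 495 across those of gKO. It summed to 2270 to 2620 in cWT and 517 to 531 in cKO. All 10 were called lower in gKO and in cKO at day 0. At day 3 its sum was 883 to 904 RPKM in the gWT libraries and 716 to 757 in those of gKO, with 3 called higher, 5 lower and 2 not called. In cWT at day 3 it summed to 451 to 559 RPKM and in cKO to 713 to 796, with 6 called higher and 3 lower. None of the 10 was at 0 in any group, and their part in the Ms4a4a levels was not tested.

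Monocyte and osteoclast markers moved with the higher Ms4a4a, Ms4a6b and Ms4a6c of the knockout-labelled groups at day 3. For 5 monocyte markers (Ly6c2, Ccr2, Plac8, F13a1 and Chil3) the sum spanned 46.2 to 104 RPKM over gWT libraries and 1619 to 1874 over gKO. It spanned 68.5 to 91.1 RPKM over cWT and 1043 to 1207 over cKO, and all 5 were called higher in both sets. At day 0, where Ms4a4a was lower in the knockout-labelled groups, 4 of the 5 were called higher and 1 lower in gKO, and 3 higher, 1 lower and 1 not called in cKO. The list of 8 osteoclast markers (Ctsk, Acp5, Calcr, Mmp9, Dcstamp, Ocstamp, Atp6v0d2 and Oscar) spanned 3591 to 5450 RPKM in sum over gWT libraries of day 3 and 22673 to 23733 over gKO. It spanned 5402 to 6737 RPKM over cWT and 17174 to 17445 over cKO, and all 8 were called higher in both sets. None of these markers was at 0 in any of those groups, and their part in the Ms4a levels was not tested.
The genes most like Ms4a4a over the 12 group means were March1, a ubiquitin ligase that removes MHC class II from the surface (r = 0.969), Erbin, a scaffold protein (0.965), and Sec14l1 (0.961).

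**Figure D2:**
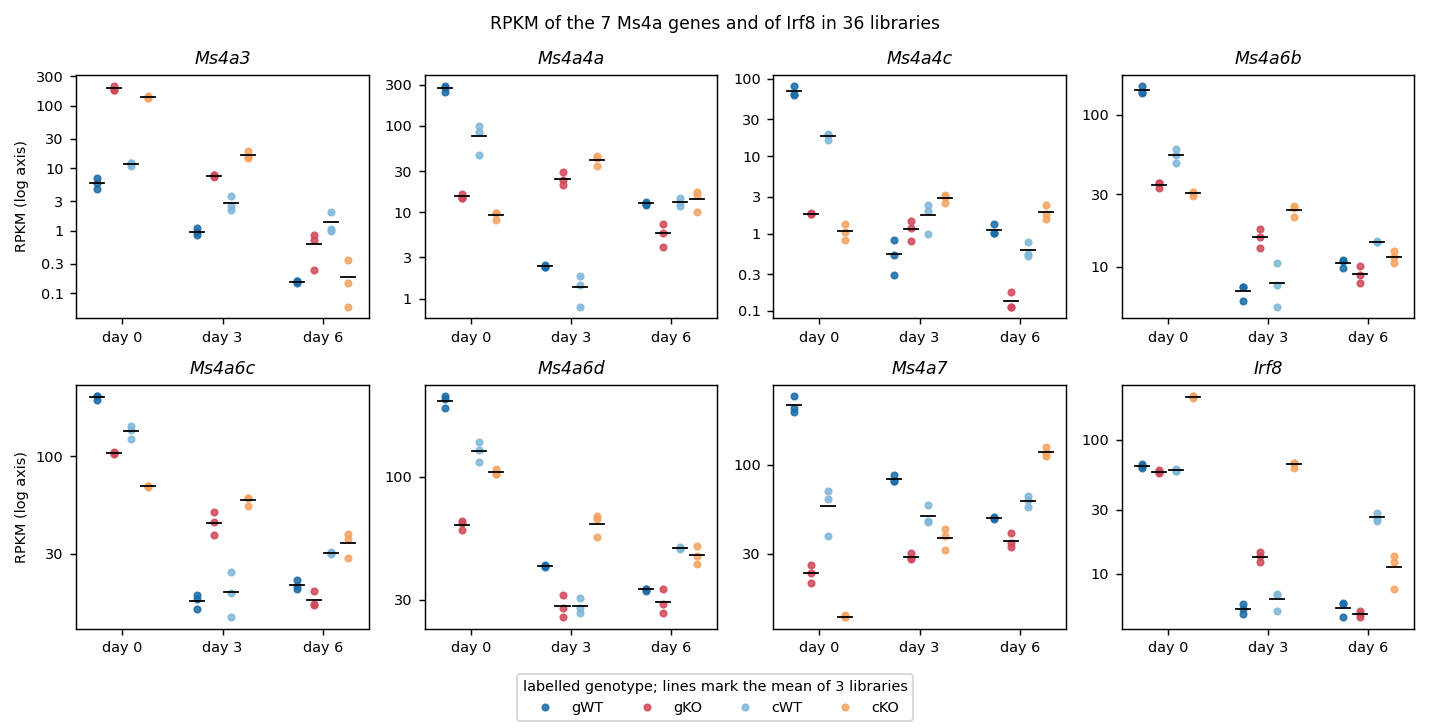
RPKM (log axes) of the 7 Ms4a genes and of Irf8 in 36 libraries by day; points are single libraries coloured by labelled genotype and lines mark the mean of 3. Ms4a3 is high in gKO and cKO at day 0 (134 to 211 RPKM), the 6 other members are highest in gWT at day 0, and Ms4a4a at day 3 is above 20 RPKM in gKO and cKO and below 2.5 in gWT and cWT.

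Ms4a4c, the neighbour of Ms4a4a in the cluster, had its high levels in the wild-type groups at day 0 and low levels elsewhere. It had 63.2, 81.6 and 61.9 RPKM in gWT and 1.79, 1.80 and 1.83 in gKO at day 0. In the c groups it had 19.4, 18.5 and 16.1 RPKM in cWT and 0.817, 1.33 and 1.04 in cKO. No library of either knockout group came near a wild-type library, and the group means differed 38.1-fold and 16.9-fold. After day 0 its group means lay between 0.134 RPKM (gKO at day 6) and 2.87 RPKM (cKO at day 3). At day 3 gKO (1.19, 1.43 and 0.803 RPKM) overlapped gWT (0.531, 0.817 and 0.290), and cKO (3.15, 2.99 and 2.48) was above cWT (0.977, 1.94 and 2.36) without overlap. At day 6 gKO (0.177, 0.112 and 0.112 RPKM) was below gWT (1.02, 1.32 and 1.01), and cKO (1.81, 1.52 and 2.32) was above cWT (0.539, 0.508 and 0.768). Both sets thus differed in direction at day 6, with levels near 1 RPKM. The genes most like Ms4a4c were Nectin4, an adhesion protein (r = 0.984), Tlr9, the endosomal receptor for unmethylated DNA (0.983), and Fam174a (0.976). By rank correlation Fam174a stood at place 312 of the candidates.

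The 3 genes Ms4a6b, Ms4a6c and Ms4a6d form a subfamily of close copies in the mouse. Ms4a6b is best known from T cells, Ms4a6c from olfactory neurons that use MS4A proteins as receptors, and Ms4a6d from macrophages. Ms4a6b had 141, 155 and 138 RPKM in gWT and 32.9, 35.2 and 35.6 in gKO at day 0. Ms4a6c had 199, 211 and 210.1 RPKM in gWT and 103, 104 and 106 in gKO. Ms4a6d had 197, 222 and 214 RPKM in gWT and 59.2, 63.7 and 65.0 in gKO. All 3 were lower in gKO without overlap, by ratios of group means of 4.19 for Ms4a6b, 1.98 for Ms4a6c and 3.37 for Ms4a6d.

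The same order held in the c set at day 0. Ms4a6b had 54.2, 59.6 and 47.98 RPKM in cWT and 30.5, 31.1 and 29.3 in cKO. Ms4a6c had 138, 146 and 124 RPKM in cWT and 69.5, 69.2 and 68.4 in cKO. Ms4a6d had 130.1, 141 and 116 RPKM in cWT and 108, 103 and 103 in cKO. None of the 3 overlapped, though the log2 difference of Ms4a6d was small, at -0.29 ± 0.08 against -0.81 ± 0.13 and -0.96 ± 0.12 for the other two.

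At day 3 Ms4a6b and Ms4a6c were higher in the knockout-labelled groups, and Ms4a6d differed between the sets. Ms4a6b had 7.37, 7.29 and 5.90 RPKM in gWT, 15.8, 17.8 and 13.2 in gKO, 5.40, 7.56 and 10.5 in cWT, and 25.2, 24.3 and 21.2 in cKO. Ms4a6c had 17.2, 17.98 and 15.2 RPKM in gWT, 44.4, 49.995 and 37.8 in gKO, 13.7, 18.6 and 24.1 in cWT, and 59.96, 60.08 and 53.9 in cKO. Neither gene overlapped between knockout and wild type, with log2 differences of 1.07 ± 0.13 for Ms4a6b and 1.33 ± 0.12 for Ms4a6c between gKO and gWT. Between cKO and cWT they were 1.52 ± 0.13 and 1.61 ± 0.12. Ms4a6d had 41.9, 41.3 and 42.1 RPKM in gWT and 27.6, 31.6 and 25.2 in gKO, and 26.4, 27.8 and 30.6 in cWT and 67.9, 66.1 and 55.4 in cKO. It was thus lower in gKO and higher in cKO, in both cases without overlap. At day 6 the 3 genes were within 1.25-fold of wild type by group means in both sets, with ranges of 7.84 to 14.8 RPKM for Ms4a6b, 15.9 to 38.5 for Ms4a6c and 26.4 to 50.7 for Ms4a6d over the 12 libraries.

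Across the 12 group means Ms4a6b and Ms4a6c were the pair of members most alike (r = 0.971), followed by Ms4a6b and Ms4a6d (0.921) and Ms4a6c and Ms4a6d (0.882). Of these pairs, Ms4a6b and Ms4a6d share 40 coding runs of 50 bases, Ms4a6b and Ms4a6c 6, and Ms4a6c and Ms4a6d 0. The part of such runs in the likeness was not tested. Ms4a3 and Ms4a7 had r = -0.610, the only negative value among the 21 pairs of members. The genes most like Ms4a6b were Themis2, a signalling protein of B cells and macrophages (r = 0.984), Nod1, a sensor of bacterial cell wall fragments (0.981), and Tifa, an adaptor of NF-kappaB signalling (0.976). Those most like Ms4a6c were Marf1 (0.989), Tifa (0.983) and Rassf4 (0.982). Those most like Ms4a6d were Gna12, a G protein subunit (0.980), Golga3, a Golgi protein (0.979), and Cd300a, an inhibitory receptor (0.971).

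Ms4a7, a gene of tissue macrophages and microglia of bone marrow origin, had the highest level of the 7 members in both wild-type genotypes at days 3 and 6. At day 0 it had 204, 252 and 213 RPKM in gWT, 20.3, 25.9 and 23.3 in gKO, 62.6, 70.2 and 38.1 in cWT, and 13.1, 12.8 and 12.7 in cKO. At day 3 it had 87.1, 80.6 and 79.6 RPKM in gWT, 27.9, 30.3 and 28.4 in gKO, 46.7, 46.1 and 57.6 in cWT, and 42.1, 38.3 and 31.7 in cKO. The knockout-labelled libraries were below the wild-type libraries without overlap at both days in both sets, 9.63-fold and 4.42-fold at day 0 and 2.86-fold and 1.34-fold at day 3. At day 6 it had 48.02, 49.4 and 48.5 RPKM in gWT, 34.6, 39.8 and 32.9 in gKO, 56.5, 65.5 and 62.2 in cWT, and 112, 116 and 127 in cKO. There gKO was again below gWT, while all cKO libraries were above all cWT libraries, 1.93-fold by group means. Its mean in cKO thus went from 12.9 RPKM through 37.4 to 118 over the 3 days, and in gWT from 223 through 82.4 to 48.6. The genes most like Ms4a7 were Ppfibp2 (r = 0.934), Phf13 (0.923) and Aif1, the macrophage marker also called IBA1 (0.906), with lower r than the nearest gene of any other member.

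In cKO against cWT at day 6 the macrophage marker list was higher, as Ms4a7 was, at 896 to 1179 RPKM in cKO and 577 to 609 in cWT. Of the 10, 7 were called higher, 1 lower and 2 not called, with a median log2 difference of 0.48. The sum averaged 1069 RPKM in cKO and 592 in cWT. It includes the complement genes C1qa, C1qb and C1qc, which macrophages secrete. They averaged 104, 169 and 131 RPKM in cKO and 6.70, 13.2 and 16.7 in cWT. At day 3 the list did not move with Ms4a7: 6 of the 10 were called higher and 3 lower in cKO, while Ms4a7 was lower (-0.42). The list of 8 stromal markers (Col1a1, Col1a2, Col3a1, Col6a1, Mgp, Sparc, Bgn and Dcn) summed to 327.5 to 464 RPKM in cWT at day 6 and 145 to 182 in cKO (1 called higher and 7 lower), and to at most 115 in any library of day 3. The osteoclast markers spanned 15908.5 to 18003 RPKM in sum over cWT and 25268 to 25897 over cKO, with 7 of 8 called higher and 1 not called. The 5 monocyte markers spanned 91.4 to 107.6 RPKM over cWT and 12.9 to 19.4 over cKO, with all 5 called lower. The part of these cells in the Ms4a7 difference was not tested. With cWT at day 6 taken from data set s alone, which is 1 library, the log2 difference of Ms4a7 was 0.92, a value given with no call, against 0.94 with all 3 libraries.

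**Figure D3:**
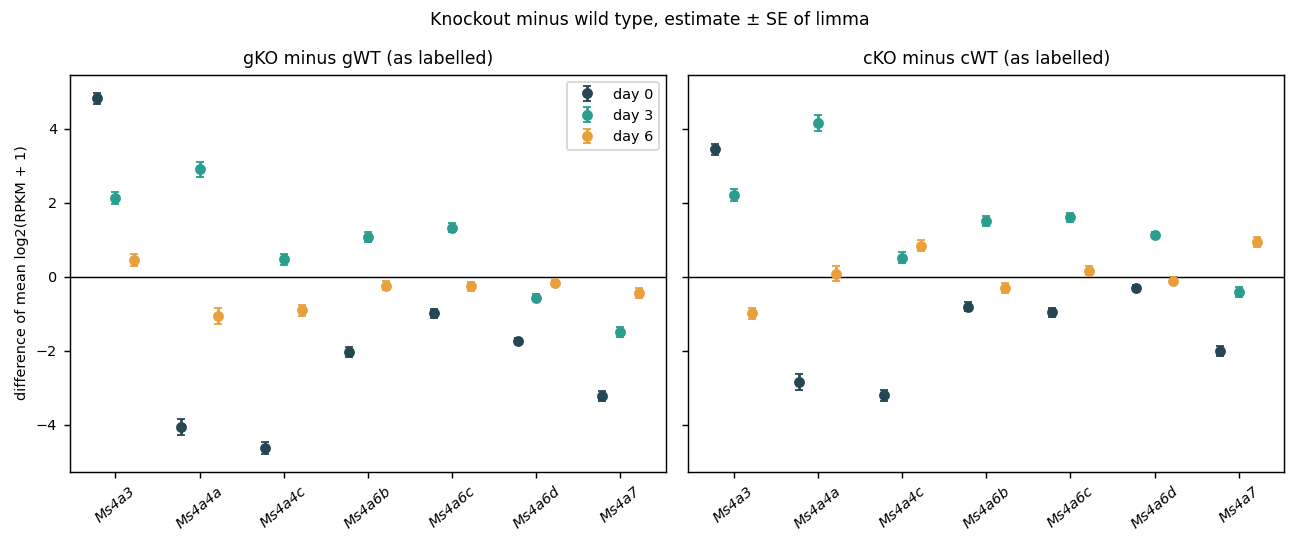
Differences of mean log2(RPKM + 1) between knockout and wild type as labelled, with the SE of limma, for 7 Ms4a genes at 3 days in the g set (left) and the c set (right). At day 0 only Ms4a3 is above 0 in both sets; at day 3 Ms4a4a, at 2.91 and 4.15, lies farthest above 0.

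Counts of called members by genotype are set here beside the share of all tested genes called, and since the members were chosen on these values nothing further is read from them. The same shares stand beside the counts of called markers given above. In gKO against gWT at day 0, 1 member was called higher and 6 lower, beside 49.0% and 29.8% of all genes. At day 3 it was 5 higher and 2 lower, beside 32.6% and 46.5%, and at day 6 it was 1 higher, 3 lower and 3 not called, beside 24.7% and 25.3%. In cKO against cWT at day 0, 1 was called higher and 6 lower, beside 36.2% and 31.7%. At day 3 it was 6 higher and 1 lower, beside 32.8% and 44.2%, and at day 6 it was 2 higher, 1 lower and 4 not called, beside 13.2% and 40.4% (25.3% and 23.2% after quantile scaling). The median log2 difference of the 7 members in the g set was -2.03, 1.07 and -0.26 at days 0, 3 and 6, beside medians over all genes of 0.16, -0.11 and 0. In the c set it was -0.96, 1.52 and 0.09, beside 0.03, -0.07 and -0.11. Some of these calls changed when 1 library was left out. At day 3, Ms4a4c (0.47 for gKO and 0.52 for cKO) lost its call without gWT replicate 3 (0.35) and without cWT replicate 1 (0.30). Ms4a7 in the c set at day 3 (-0.42) lost its call without cWT replicate 3 (-0.31), without cKO replicate 3 (-0.31) or after quantile scaling (-0.21). At day 6 in the g set, Ms4a3 (0.45) lost its call without gKO replicate 1 (0.33) or 2 (0.40), while Ms4a6c (-0.26) and Ms4a6d (-0.17) gained one without gKO replicate 2 (-0.34 and -0.26). Ms4a6b in the c set at day 6 (-0.30) gained a call without cKO replicate 3 (-0.36).

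Over time, all 7 members were lower at day 3 than at day 0 in gWT, with log2 differences of -6.34 for Ms4a4a, -5.50 for Ms4a4c, -4.22 for Ms4a6b, -3.55 for Ms4a6c, -2.31 for Ms4a6d, -1.77 for Ms4a3 and -1.42 for Ms4a7. These 7 lower calls stand beside 35.0% of all genes called lower and 48.4% called higher. In cWT 6 were lower and 1 not called, beside 38.9% lower and 39.8% higher. In gKO it was 2 higher and 5 lower, beside 28.6% and 53.9%, and in cKO 3 higher, 3 lower and 1 not called, beside 30.2% and 50.2%. The members higher at day 3 were Ms4a4a (0.63 in gKO and 2.003 in cKO), Ms4a7 (0.31 and 1.46) and, in cKO, Ms4a4c (0.91). From day 3 to day 6 it was 4 higher and 3 lower in gWT, beside 27.7% and 47.9% (38.0% and 37.4% after quantile scaling), and 4 higher, 2 lower and 1 not called in cWT, beside 28.5% and 42.8%. In gKO 5 were lower and 2 not called, beside 33.3% lower and 26.0% higher (27.0% and 33.1% after quantile scaling), and in cKO 1 higher and 6 lower, beside 20.4% and 36.7% (32.2% and 26.8%). Ms4a4a took opposite courses in that interval, by 2.02 and 2.61 upward in gWT and cWT and by -1.94 and -1.45 in gKO and cKO.

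Calls of several of the smaller changes over time also turned when 1 library was left out, in some cases with the estimate no smaller. From day 0 to day 3 in gKO, Ms4a4c (-0.40) lost its call without gKO day 3 replicate 3 (-0.28), and Ms4a7 (0.31) lost it without gKO day 0 replicate 1 (0.22) or 3 (0.32) or without any 1 of the gKO day 3 libraries (0.28 to 0.33). In cWT, Ms4a7 (-0.14) gained a call without day 0 replicate 3 (-0.40), the low library of its group, and had 0.03 without replicate 2. In cKO, Ms4a6b (-0.35) lost its call without day 3 replicate 3 (-0.28). From day 3 to day 6 in gWT, Ms4a4c (0.46) lost its call without day 3 replicate 3 (0.34). Ms4a6c (0.27) lost it there without day 3 replicate 1 (0.29) or 3 (0.21) and without day 6 replicate 2 (0.28) or 3 (0.23). In cWT, Ms4a7 (0.29) gained one without day 3 replicate 3 (0.39) or day 6 replicate 1 (0.35), and in cKO Ms4a4c (-0.43) lost it without day 3 replicate 1 (-0.38) or day 6 replicate 2 (-0.34).

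The change of the genotype difference over time was fitted within the g set, where all libraries are of 1 data set. From day 0 to day 3 the gKO minus gWT difference moved by 6.97 ± 0.30 for Ms4a4a, 5.10 ± 0.21 for Ms4a4c, 3.11 ± 0.18 for Ms4a6b, 2.31 ± 0.17 for Ms4a6c, 1.73 ± 0.19 for Ms4a7, 1.18 ± 0.12 for Ms4a6d and -2.70 ± 0.21 for Ms4a3 (log2 ± SE). This is 6 higher and 1 lower, beside 32.4% and 49.5% of all genes (42.1% and 39.9% after quantile scaling). From day 3 to day 6 it was 2 higher and 5 lower, beside 41.6% and 33.2%, with -3.96 for Ms4a4a the lowest and 1.05 for Ms4a7 the highest.

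The summed RPKM of the 7 members and its make-up are a further view of the same values. The sum was 1132 ± 77.4 RPKM (SD, n = 3) in gWT, 434 ± 21.4 in gKO, 482 ± 74.5 in cWT and 365 ± 8.21 in cKO at day 0. It was 152 ± 5.61, 149.9 ± 17.4, 111 ± 17.7 and 242 ± 20.7 RPKM at day 3 in the same order, and 127 ± 1.38, 97.6 ± 11.01, 171 ± 5.77 and 227 ± 18.6 at day 6. Ms4a3 made up 0.511% of the sum in gWT and 44.2% in gKO at day 0, and 2.47% in cWT and 37.8% in cKO. In gWT at day 0, Ms4a4a (24.0%), Ms4a7 (19.7%), Ms4a6d (18.6%) and Ms4a6c (18.3%) had similar shares. By day 3 Ms4a7 made up 54.3% in gWT and 45.4% in cWT but 19.4% in gKO and 15.4% in cKO, where Ms4a4a made up 16.2% and 16.7%, against 1.56% in gWT and 1.20% in cWT. At day 6 Ms4a7 held the largest share in all 4 genotypes, 38.4% in gWT, 36.7% in gKO, 35.8% in cWT and 52.2% in cKO.

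**Figure D4:**
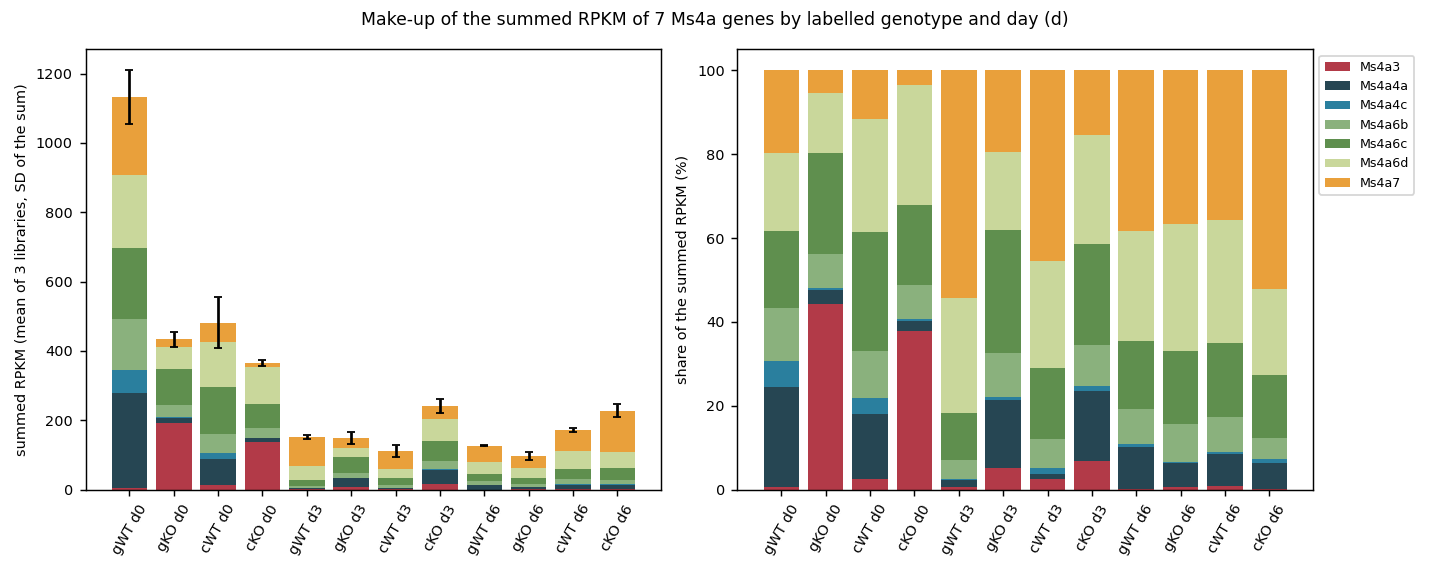
Summed RPKM of 7 Ms4a genes in 12 groups (left, mean of 3 libraries with the SD of the sum) and the share of each gene in that sum (right, mean percent). The sum is highest in gWT at day 0 (1132 RPKM); Ms4a3 takes 44.2% and 37.8% of it in gKO and cKO at day 0, and Ms4a7 takes 54.3% in gWT at day 3 and 52.2% in cKO at day 6.

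The other 10 rows whose symbol begins with Ms4a were left out by the choice of members by expression. They are described for completeness, and their low levels follow from that choice. Only Ms4a1 and Ms4a4b passed the filter. Ms4a1, which encodes the B cell protein CD20, reached 3.35 RPKM in a cKO library at day 0, where its libraries had 1.24, 2.03 and 3.35 RPKM against 0.245, 0.314 and 0.220 in cWT. It was called higher in cKO by 1.30 ± 0.11 (limma adjusted p = 2.83e-11). The list of 9 B cell markers moved with it, at 29.7 to 73.2 RPKM in cKO and 8.66 to 10.99 in cWT at day 0, and the part of B cells was not tested. Ms4a4b, a gene best known from T cells that lies between Ms4a4c and Ms4a6c, had at most 2.71 RPKM. At day 0 its level differed little by genotype, with 2.71, 2.36 and 2.42 RPKM in gWT and 1.99, 2.39 and 1.64 in gKO, a log2 difference of -0.23 ± 0.09 (limma adjusted p = 0.0207). At day 3 it was higher in gKO by 0.80 ± 0.09 (limma adjusted p = 1.79e-09) and in cKO by 0.65 ± 0.09 (limma adjusted p = 1.21e-07). The means at day 3 were 0.114 RPKM in gWT, 0.943 in gKO, 0.145 in cWT and 0.805 in cKO. These are under 1 RPKM, where the counting error is unknown. Levels of Ms4a4b are also uncertain because of the runs it shares with Ms4a4c. Ms4a2, the beta chain of the IgE receptor, lies between Ms4a6d and Ms4a3 and reached 0.745 RPKM (gKO at day 0). Ms4a4d, between Ms4a6b and Ms4a6d, reached 0.158 RPKM, and Ms4a8a reached 0.537 RPKM. Ms4a10 and Ms4a13 were listed at 0 in all 36 libraries, and Ms4a5, Ms4a15 and Ms4a18 stayed under 0.1 RPKM. Ms4a19 and Ms4a20, listed under the older symbols 1700025F22Rik and 1700017D01Rik, reached 0.0418 and 0.0651 RPKM. No row was found for Ms4a12 or Ms4a14.

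Tmem176a and Tmem176b, more distant relatives of the family on another chromosome that encode paired membrane proteins of myeloid cells, were measured well. Tmem176b had 58.0, 85.5 and 63.5 RPKM in gWT and 10.3, 12.6 and 11.1 in gKO at day 0, and was called lower in gKO by 2.49 ± 0.14 (limma adjusted p = 4.17e-16). Tmem176a fell alike, by 2.33 ± 0.16 (limma adjusted p = 3.27e-14). In the c set both were also lower at day 0, by 1.13 ± 0.14 (limma adjusted p = 3.07e-08) and 0.80 ± 0.16 (limma adjusted p = 4.90e-05). At day 3 both were called higher in cKO, Tmem176a by 1.25 ± 0.16 (limma adjusted p = 2.96e-08) and Tmem176b by 0.62 ± 0.14 (limma adjusted p = 0.000217). In the g set at day 3 they differed in direction, Tmem176a by 0.47 ± 0.16 (limma adjusted p = 0.00778) and Tmem176b by -0.43 ± 0.14 (limma adjusted p = 0.00652).

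Receptors and kinases reported to work with MS4A proteins were taken as a list of 14 genes, of which 13 were tested. They are Dectin-1 (Clec7a) with its adaptor Card9, Trem2 with Tyrobp, the Fc receptors with Fcer1g and Fcer1a, the kinases Syk and Lyn, and Cdk2 with Cdkn3, the partners of the Ms4a3 protein. In gKO against gWT at day 0, 3 were called higher and 9 lower, beside 49.0% and 29.8% of all genes, with a median log2 difference of -0.78 beside 0.16. Fcgr1, the high-affinity IgG receptor, went from 111 RPKM in gWT to 4.30 in gKO (-4.40 ± 0.08, limma adjusted p = 3.49e-27). Fcgr4, an activating IgG receptor, went from 52.2 to 8.51 RPKM (-2.48 ± 0.12, limma adjusted p = 1.74e-17), and Clec7a from 52.9 to 14.3 RPKM (-1.81 ± 0.13, limma adjusted p = 1.33e-13). The 3 higher genes were Cdk2, Cdkn3 and Card9, of which Cdk2 went from 13.8 to 35.2 RPKM and Cdkn3 from 11.6 to 28.4. In cKO against cWT at day 0 it was 3 higher and 8 lower, beside 36.2% and 31.7%, with a median of -0.27 beside 0.03.

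At day 3 in gKO against gWT, 8 genes of the partner list were called higher and 4 lower, beside 32.6% and 46.5% of all genes, with a median of 0.28 beside -0.11. In cKO against cWT it was 7 higher and 3 lower, beside 32.8% and 44.2%, with a median of 0.25 beside -0.07. Fcgr3, a low-affinity IgG receptor, averaged 28.0 RPKM in gWT and 49.5 in gKO (0.79 ± 0.11, limma adjusted p = 9.32e-08), and 16.7 in cWT and 63.4 in cKO (1.86 ± 0.11, limma adjusted p = 2.45e-15). Clec7a was higher in cKO by 1.38 ± 0.13 (limma adjusted p = 9.24e-11) and did not pass in gKO (0.18 ± 0.13, limma adjusted p = 0.19). Trem2, a lipid-sensing receptor, was lower in both, by 1.38 ± 0.12 in gKO (limma adjusted p = 7.90e-12) and 0.63 ± 0.12 in cKO (limma adjusted p = 2.18e-05). At day 6 it was 2 higher and 4 lower in gKO with 7 not called, beside 24.7% and 25.3% of all genes, and 4 higher and 3 lower in cKO with 6 not called, beside 13.2% and 40.4%. Over time in gWT, 2 were higher and 11 lower at day 3 than at day 0, beside 48.4% and 35.0%, with a median of -1.17 beside 0.13. For the change of the gKO minus gWT difference from day 0 to day 3 the list had 9 higher and 3 lower, beside 32.4% and 49.5%, with a median of 1.03 beside -0.22.

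Of the 14 tetraspanins, unrelated in sequence but alike in shape, 4 were called higher and 10 lower in gKO at day 0. These counts stand beside 49.0% and 29.8% of all genes, and the list median was -0.44 beside 0.16 over all genes. Cd63, a lysosomal tetraspanin, was lower by 1.65 ± 0.09 (limma adjusted p = 8.21e-17), and Tspan32 was higher by 1.34 ± 0.10 (limma adjusted p = 1.99e-13). At day 3 against day 0 in gWT, 6 were higher, 5 lower and 3 not called, beside 48.4% higher and 35.0% lower of all genes. The list median was -0.0035 beside 0.13. In that interval Cd82 rose by 1.10 ± 0.07 (limma adjusted p = 5.87e-15), and Cd81, a partner of the B cell receptor complex, fell by 2.07 ± 0.09 (limma adjusted p = 1.21e-18).

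Among 12 transcription factors of myeloid cells, 3 were called higher in gKO than in gWT at day 0, 6 lower and 3 not called. Of all genes, 49.0% were called higher there and 29.8% lower. Gfi1, a repressor of granulocyte precursors, was higher in gKO by 3.15 ± 0.06 (limma adjusted p = 3.81e-27), and Cebpe, a factor of granule genes, by 2.30 ± 0.09 (limma adjusted p = 2.67e-20). Maf, a factor of mature macrophages, was lower by 1.61 ± 0.13 (limma adjusted p = 2.28e-12), and Prdm1, a repressor active in osteoclast formation, by 2.66 ± 0.07 (limma adjusted p = 3.02e-23). The list median was -0.17 beside 0.16. At day 3 Maf, named for that day after its values were seen, was higher in gKO by 0.67 ± 0.13 and in cKO by 1.70 ± 0.13. At that day the list had 6 higher, 3 lower and 3 not called in gKO, beside 32.6% higher and 46.5% lower of all genes. In cKO it had 7 higher, 3 lower and 2 not called, beside 32.8% and 44.2%.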

How the data were processed

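RNA-seq gave expression values for 36 libraries. The deposited values are RPKM per gene; per the file headers the authors mapped reads with TopHat to mm9, computed RPKM with Partek and combined 3 data sets. The submitters' processing notes list TopHat2 2.1.0, bcl2fastq 2.17.1, CASAVA 1.8.4, deepTools and Partek. Whether strand was used in counting is not given in those sources. Without counts per gene, values under 1 RPKM carry an unknown counting error. The authors' deposited comparison tables were not used.

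Log2(RPKM + 1) of genes with at least 1 RPKM in at least 3 libraries was fitted with limma 3.58.1 (R 4.3.3, trend and robust) with 12 group means and 16 contrasts, adjusted by Benjamini-Hochberg within each. The fit was tested on simulated data. Python 3.11.15, pandas 2.3.3, numpy 2.4.6, matplotlib 3.10.9 and Biopython 1.88 were used for tables, figures and alignments. Members and gene lists were chosen with earlier results of these data known. Of the monocyte marker list, 1 gene is not reported here and sums and counts are over the other 5. Text names all members, other Ms4a rows, Tmem176a, Tmem176b, Irf8, up to 4 genes of a list per contrast by size of change at 5 RPKM or more, and the 3 genes most like each member by Pearson r. A gene named in 1 contrast may be given in others; C1q genes, Card9, Cdk2, Spi1 and Maf at day 3 were named after their values were seen. Same-numbered libraries deviated together, with every correlation over 0.1, for gKO against gWT at day 3 (0.126, 0.115 and 0.222) and for day 3 against day 0 in gWT (0.347, 0.186 and 0.142). Alternatives were another pseudocount, no filter, quantile scaling, a replicate block, leaving out each library and, chosen after seeing the data, cWT at day 6 from 1 data set.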

Additional observations from a re-analysis of the deposited data

Results flagged for a closer look

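Within the g set the fitted change of the gKO minus gWT difference with the day (limma) was called for all 7 members, which were chosen on these libraries. Of all genes, 32.4% were called higher and 49.5% lower from day 0 to day 3, and 41.6% and 33.2% from day 3 to day 6, so nothing is read from the count. From day 0 to day 3 it moved by -2.70 for Ms4a3, 6.97 for Ms4a4a, 5.10 for Ms4a4c, 3.11 for Ms4a6b, 2.31 for Ms4a6c, 1.18 for Ms4a6d and 1.73 for Ms4a7 on the log2 scale. From day 3 to day 6 it moved by -1.68 for Ms4a3, -3.96 for Ms4a4a, -1.37 for Ms4a4c, -1.31 for Ms4a6b, -1.59 for Ms4a6c, 0.39 for Ms4a6d and 1.05 for Ms4a7. The value of Ms4a6d was 0.22 after quantile scaling and then not called.

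In the c set some members went one way in every library at one day and the opposite way at another. Those changes were not tested. The share of all genes that turned likewise was not counted, so nothing is read from how many members did. Lower in cKO at day 0 and higher at day 3 were Ms4a4a (4.15 at day 3), Ms4a4c (0.52), Ms4a6b (1.52), Ms4a6c (1.61) and Ms4a6d (1.13). Ms4a4c lost its day 3 call without cWT replicate 1 (0.30). Between day 3 and day 6 the direction turned for Ms4a3 (-0.98 at day 6), Ms4a6b (-0.30) and Ms4a7 (0.94). Ms4a6b was not called at day 6, and Ms4a7 at day 3 (-0.42) lost its call after quantile scaling (-0.21). Between day 0 and day 6 it turned for Ms4a3 (-0.98), Ms4a4c (0.84) and Ms4a7 (0.94). Irf8 turned too, from 6.42 RPKM in cWT and 65.4 in cKO at day 3 to 26.3 and 11.2 at day 6. All 8 progenitor and granule markers and all 5 monocyte markers were called higher in cKO at day 3 and lower at day 6. The file header states that annotation of these day 6 libraries was corrected. As read here, cKO is of data set t at days 0 and 3 and of s at day 6, so day and data set cannot be told apart.

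The g and c sets had opposite directions at the same day for 4 results, which were not tested: Ms4a6d at day 3 (-0.56 in the g set, 1.13 in the c set), and at day 6 Ms4a3 (0.45 and -0.98), Ms4a4c (-0.90 and 0.84) and Ms4a7 (-0.44 and 0.94). Ms4a3 at day 6 in the g set lost its call without gKO replicate 1 or 2. The share of all genes with opposite directions was not counted. The g and c sets are of different data sets as read here. Irf8 at day 6 was lower in cKO (11.2 RPKM) than in cWT (26.3), the reverse of its order at day 3.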

How the results depend on the processing

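In all 16 contrasts the count of called members stayed within 1.5 times of its value under every setting run, and no called difference reversed. With 1 library left out the count was 6 to 7 for gKO against gWT at day 3, 3 to 5 at day 6, 6 to 7 and 3 to 4 for cKO against cWT at days 3 and 6, and 5 to 7 over time. The replicate block left the count at 7 for gKO against gWT at days 0 and 3 and changed it only for cKO against cWT at day 6, from 3 to 4 (Ms4a6b), where the numbers were not shown to pair the libraries. Of 112 log2 differences, 36 moved by more than the residual SD between replicates at a pseudocount of 0.1 and 26 under quantile scaling. Dropping the filter or adding the block cannot move a difference of group means in this balanced design, only its SE and call. At a pseudocount of 0.1 the low genes grew, for example Ms4a4c in gKO against gWT at day 6 from -0.90 to -2.38 and Ms4a3 in cKO at day 6 against day 3 from -3.87 to -5.97. Without a filter Ms4a6c (gWT, day 6 against day 3) and Ms4a7 (gKO, day 3 against day 0) lost their calls. Quantile scaling moved the median over all genes by over 0.1 in 7 of 16 contrasts, most for the difference of differences from day 0 to day 3 (-0.22 to 0.03). It ended the calls of Ms4a7 in cKO against cWT at day 3, Ms4a6d in gWT (day 6 against day 3), Ms4a6b in cKO (day 3 against day 0), Ms4a4c in cKO (day 6 against day 3) and Ms4a6d in the second difference of differences. Ms4a7 in cWT (day 6 against day 3) gained a call under it, from 0.29 to 0.46. The pseudocount ended the call of Ms4a4c in cKO at day 6 against day 3 as well. With cWT at day 6 from data set s alone, that group is 1 library assumed to vary like the other groups, which supply the spread. Genes called in all then went from 6357 to 4021, and the 3 members called there show nothing about stability. Only RPKM were used, so depth limits the values under 1 RPKM to an unknown degree.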

Other observations

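Of the 12 groups, gWT at day 0 had the highest mean of every member other than Ms4a3, and its replicate 2 held the highest value of any library for Ms4a4a, Ms4a4c, Ms4a6b, Ms4a6c, Ms4a6d and Ms4a7. Replicate 3 of cWT at day 0 was the lowest of its group for Ms4a4a, Ms4a4c, Ms4a6b, Ms4a6c, Ms4a6d and Ms4a7 but not for Ms4a3. Spi1, which encodes PU.1, varied far less than the members, from 208 to 484 RPKM over the 12 group means.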
